A study of Mus musculus with 48 samples.

Results

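The microRNA biogenesis factors described here are 7 genes, Drosha, Dgcr8, Dicer1, Xpo5, Tarbp2, Prkra and Dis3l2, taken by gene symbol from a count table of 20171 genes. All 7 were found, and each kept enough counts to be tested in every comparison. The table holds 48 libraries of mouse embryonic stem cells. Of these, 24 are inputs, the RNA of cleared lysates, and 24 are the RNA that beads with an HA antibody pulled out of the lysates (immunoprecipitates, IP).

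Every line carried the GFP_5xT71BS reporter, and the parental 129S6/SvEvTac line also had a stably transfected FLAG-Cas9::T2A::Blasticidin cassette. The 4 genotypes were this parental line without a tag (untagged), a line with HA-AVI-Tnrc6a (HA-Tnrc6a), and the tagged line labelled Ago2-/- or Upf1-/-. Each of the 8 combinations of genotype and fraction had 6 libraries, numbered 1 to 3 or 4 to 6 in the headers, which are called the lower-numbered and the higher-numbered set below. Cells were grown in triplicate dishes, and how many clones stand for a genotype is not given in the sources used here, so p-values measure the spread between these libraries, which may be technical.

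MicroRNA genes are transcribed as long hairpin precursors. In the nucleus the Microprocessor, made of the nuclease Drosha and its RNA-binding partner Dgcr8, cuts out the hairpin, and exportin 5 (Xpo5) carries it to the cytoplasm. There Dicer (Dicer1), with the double-stranded RNA binding proteins Tarbp2 or Prkra at its side, removes the loop, and the product is loaded into an Argonaute protein such as Ago2. Tnrc6a, a GW182 protein, binds Argonaute and recruits the enzymes that repress the target mRNA. Dis3l2 is an exonuclease that degrades uridylated RNAs, among them precursors of let-7, whose maturation is blocked in embryonic stem cells.

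The Microprocessor also cuts hairpins in the mRNA of Dgcr8, a known route by which the complex limits its own production. One of these hairpins is annotated as Mir1306, and its sequence is shown because it lies within the span of a gene whose level the comparisons below turn on. RefSeq (GRCm38.p6) places it at chr16:18284239-18284317 on the minus strand, inside the Dgcr8 span of chr16:18253948-18289251, also on the minus strand. In the hairpin the capitals mark the mature arms, and in each mature sequence they mark the seed.
Mir1306 hairpin: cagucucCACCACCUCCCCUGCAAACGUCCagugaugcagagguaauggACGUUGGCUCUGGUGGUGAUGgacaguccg
mmu-miR-1306-5p: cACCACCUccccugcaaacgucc
mmu-miR-1306-3p: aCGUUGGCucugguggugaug

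On GRCm38.p6, RefSeq places Drosha at chr15:12824804-12935291, Dicer1 at chr12:104687740-104751968 and Prkra at chr2:76609215-76648220, with no overlapping gene. Tarbp2 lies at chr15:102516077-102523676, Xpo5 at chr17:46202811-46243598 and Dis3l2 at chr1:86701924-87050097. Xpo5 overlaps Mir693 and Gm22474, and Dis3l2 overlaps Gm6136 and Gm41909, so their counts, like those of Dgcr8 and Tarbp2, may hold reads of a neighbour.

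Library totals ran from 15383953 to 37179105 counts in inputs and from 11471544 to 73845953 in immunoprecipitates, and were lower in the lower-numbered set. HA-Tnrc6a input 3 and immunoprecipitate 4 labelled Upf1 knockout stood apart most from the others of their set, with a chi-square per degree of freedom of at least 27.0 for the former and at least 24.9 for the latter. Leaving out either moved no call of the 7 genes except that of Dgcr8 recovery, given below. All 10 embryonic stem cell markers were in the table and summed to between 6891 and 8633 CPM, the unit of counts after TMM scaling for library size, in inputs. Markers of fibroblasts (4 of 8 in the table), endoderm (5 of 6), mesoderm (5 of 5), neural cells (4 of 4) and trophoblast (2 of 4) each summed to at most 118 CPM there. Neural markers summed to 109 to 118 CPM in Ago2 knockout inputs, 80.3 to 87.9 in HA-Tnrc6a inputs and 49.8 to 65.8 in those labelled Upf1 knockout, and endoderm markers to 5.18 to 6.34, 16.5 to 24.3 and 8.57 to 48.6 CPM. The part of such cells in the input differences below was not tested. In Ago2 knockout inputs Ago2 RNA was lower by a log2 fold change of -1.21 ± 0.03 (SE). Upf1 RNA was higher, by 0.58 ± 0.03, in the inputs labelled Upf1 knockout, so its level does not check that label. Tnrc6a itself was enriched in tagged cells by 7.77 ± 0.18 over untagged cells on the log2 scale.

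Drosha had the highest input level of the 7 genes per kilobase of listed gene length. CPM values were divided by the gene length in the table to give CPM per kilobase. That length was 5935 bases for Drosha, 4549 for Tarbp2 and 16750 for Dicer1. How far it matches the mRNA expressed in these cells was not tested, so the order holds for these lengths only. Over the 24 inputs the median level was 30.6 CPM per kilobase for Drosha, and Drosha was above Xpo5 in all 24 libraries. Xpo5 followed at 19.5, above Tarbp2 (13.7) in 23 of 24 libraries. Tarbp2 was above Dgcr8 (8.76) in all 24. Dgcr8 and Dicer1 (8.21) were neighbours whose levels overlapped, with Dgcr8 higher in 17 of the 24. Dicer1 was above Prkra (5.94) in 22 of 24 libraries, and Prkra above Dis3l2 (2.95) in 24. The counts behind these values ran from 220 to 454 per library for Prkra and from 2463 to 9035 for Drosha.

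**Figure D1:**
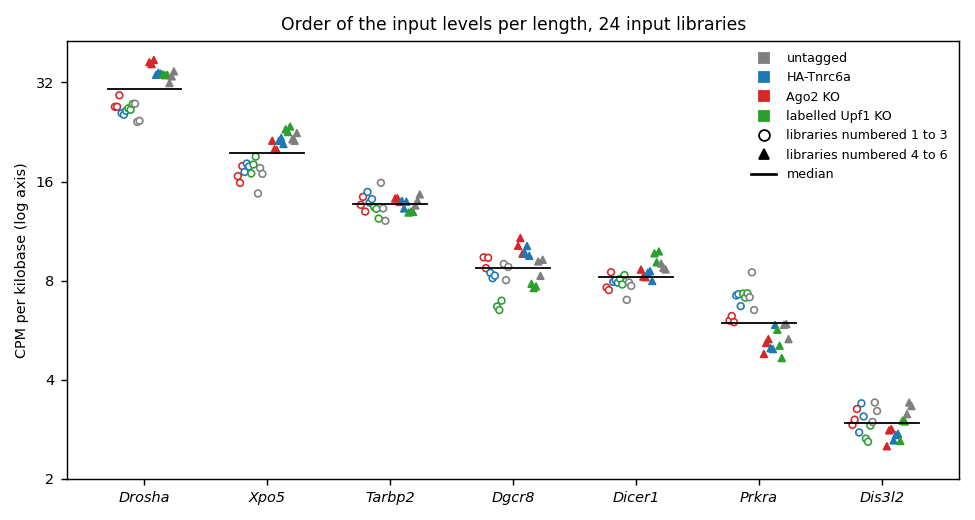
Input level of each gene in CPM per kilobase (log axis) in 24 input libraries, coloured by genotype, with circles for libraries numbered 1 to 3, triangles for those numbered 4 to 6, and a bar for the median. Drosha sits highest (median 30.6) and Dis3l2 lowest (2.95), and the points of Dgcr8 and Dicer1 overlap.

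The input levels also differed between the library sets for some genes. Drosha inputs ran from 144 to 174 CPM in the lower-numbered set and from 189 to 222 in the higher-numbered set, with no overlap. Fold changes between genotypes were therefore formed within each set and averaged.

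**Figure D2:**
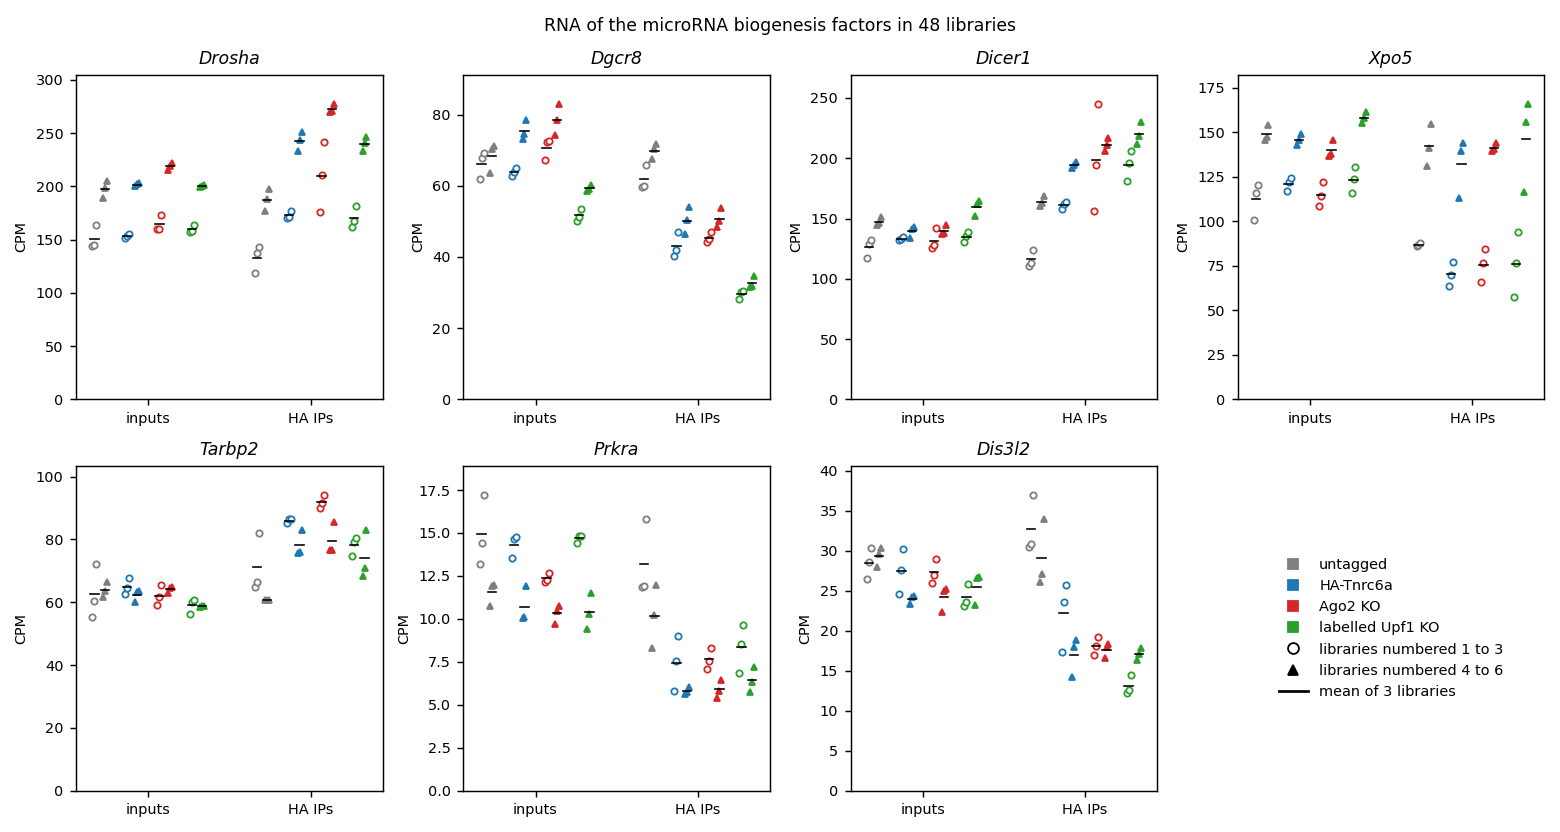
CPM (TMM-scaled, linear axis from 0) of each gene in all 48 libraries, with 4 genotypes for inputs at the left and for HA immunoprecipitates at the right of each panel, and a bar at the mean of 3 libraries. Dgcr8 inputs labelled Upf1 knockout (50.1 to 60.2 CPM) sit below the other inputs of their set, and the tagged immunoprecipitates of Dgcr8 and Prkra sit below the inputs of their genotype and set, as do those of Dis3l2 except for an overlap in HA-Tnrc6a cells of the lower-numbered set.

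The first comparison asks whether the mRNAs of the processing machinery changed in lysates of the mutant cells. Dgcr8 was lower in cells labelled Upf1 knockout, and it was the largest input difference from HA-Tnrc6a cells among the 7 genes. Drosha and Dgcr8 were slightly higher in Ago2 knockout cells, by a factor of 1.07 or 1.08.

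For Dgcr8, the RNA-binding partner in the Microprocessor, HA-Tnrc6a inputs measured 65.0, 62.6 and 63.7 CPM in the lower-numbered set and 74.7, 78.4 and 73.2 CPM in the higher-numbered set. Inputs labelled Upf1 knockout measured 51.4, 50.1 and 53.5 CPM, and 60.2, 58.4 and 59.1 CPM. In both sets all 3 libraries labelled Upf1 knockout were below all 3 HA-Tnrc6a libraries. The log2 fold change was -0.32 ± 0.03 (SE, n = 6 against 6), a level of 0.799 times that of HA-Tnrc6a cells (edgeR quasi-likelihood test, Benjamini-Hochberg adjusted p = 1.69e-12, as for all adjusted p below). It was -0.31 ± 0.05 in the lower-numbered set and -0.33 ± 0.04 in the higher-numbered set. In these bulk lysates, fewer cells that express a gene and less of its RNA per cell cannot be told apart. The fall passed the threshold under every alternative fitted, with adjusted p between 1.78e-20 and 4.46e-06. Trmt2a, a tRNA methyltransferase gene on the opposite strand that overlaps the Dgcr8 span by 825 bases, changed by -0.09 ± 0.03 in the same comparison (edgeR adjusted p = 0.00729). Whether the counting assigned reads by strand is not given in the sources used here, so the part of Trmt2a reads in the Dgcr8 counts was not tested.

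In Ago2 knockout inputs Dgcr8 measured 72.4, 67.2 and 72.2 CPM in the lower-numbered set, above all 3 HA-Tnrc6a inputs. In the higher-numbered set it measured 78.5, 82.9 and 74.3 CPM, which overlapped the HA-Tnrc6a inputs. The log2 fold change was 0.10 ± 0.03 (edgeR adjusted p = 0.0149). Without Ago2 knockout input 5 the difference was 0.08 and no longer passed the threshold (edgeR adjusted p = 0.0704). The call was also lost with all 48 libraries in 1 fit (0.114) and with the higher-numbered set fitted alone (0.282).

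Drosha, the nuclease of the Microprocessor, measured 153, 152 and 156 CPM in HA-Tnrc6a inputs of the lower-numbered set and 200.2, 203 and 202 CPM in the higher-numbered set. Ago2 knockout inputs measured 160.1, 160.2 and 174 CPM, and 219, 216 and 222 CPM, above every HA-Tnrc6a input of their set. The log2 fold change was 0.11 ± 0.03 (edgeR adjusted p = 0.000985). It missed the threshold with all 48 libraries in 1 fit (0.119) and with the lower-numbered set fitted alone (0.121). In inputs labelled Upf1 knockout Drosha differed by 0.03 ± 0.02 and did not pass the threshold (edgeR adjusted p = 0.371), though with library totals it passed at 0.07 (edgeR adjusted p = 0.0128). The partners of the Microprocessor thus had different values in that comparison, 0.03 for Drosha and -0.32 for Dgcr8; the difference between the 2 genes was not tested.

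Dicer1, which cuts the hairpin in the cytoplasm, measured 133, 134 and 132 CPM in HA-Tnrc6a inputs of the lower-numbered set, and inputs labelled Upf1 knockout measured 136, 130.4 and 139 CPM there, with overlap. In the higher-numbered set HA-Tnrc6a inputs measured 142, 143 and 134 CPM, and all 3 labelled Upf1 knockout were higher, at 162, 152 and 164 CPM. The averaged log2 fold change was 0.11 ± 0.03 (edgeR adjusted p = 0.000396), made of 0.01 ± 0.04 in the lower-numbered set and 0.21 ± 0.04 in the higher-numbered set. With all 48 libraries in 1 fit the call was lost (edgeR adjusted p = 0.0992). That gap of 0.20 ± 0.05 between the sets passed the threshold (edgeR adjusted p = 0.00952), as did 11.6% of all genes tested for such a gap. In Ago2 knockout inputs the Dicer1 difference was -0.01 ± 0.03 (edgeR adjusted p = 0.892).

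The Dicer partner Tarbp2 was lower in inputs labelled Upf1 knockout by -0.11 ± 0.03 (edgeR adjusted p = 0.00299), with all 3 libraries of each set below those of HA-Tnrc6a. The value was -0.15 ± 0.05 in the lower-numbered and -0.07 ± 0.04 in the higher-numbered set. With library totals in place of TMM the average was -0.07 and missed the threshold (edgeR adjusted p = 0.0831). The call was also lost with all 48 libraries in 1 fit (0.0751) and with the higher-numbered set alone (0.141). Map3k12, a kinase gene on the opposite strand that shares 928 bases with the Tarbp2 span, changed by -0.26 ± 0.04 there (edgeR adjusted p = 4.85e-07), and its part in the Tarbp2 counts was not tested. The exporter Xpo5 was higher by 0.07 ± 0.03 (edgeR adjusted p = 0.0189), with 0.02 ± 0.04 in the lower-numbered and 0.13 ± 0.04 in the higher-numbered set. That gap did not pass the threshold (edgeR adjusted p = 0.187). The Xpo5 call was lost with DESeq2 (adjusted p = 0.0627), with all 48 libraries in 1 fit (edgeR adjusted p = 0.445) and with the lower-numbered set alone (0.769). It was also lost without HA-Tnrc6a input 1 or 6 or input 3 or 6 labelled Upf1 knockout (edgeR adjusted p 0.0521 to 0.0881). Prkra, the other Dicer partner, differed by 0.00 ± 0.07 and Dis3l2 by -0.04 ± 0.05, and neither passed the threshold. For Dis3l2 the sets differed, with -0.19 ± 0.08 in the lower-numbered and 0.11 ± 0.07 in the higher-numbered set (edgeR adjusted p of the gap = 0.0469).

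In counts, 2 of the 7 genes (Drosha, Dgcr8) were higher and 0 lower in Ago2 knockout inputs, against 30.9% of all genes tested passing in either direction, 15.7% higher and 15.2% lower. Among the uncalled genes there, Prkra was at -0.13 ± 0.07, Xpo5 at -0.07 ± 0.03 (edgeR adjusted p = 0.0716), Tarbp2 at -0.01 ± 0.03 and Dis3l2 at 0.00 ± 0.05. Xpo5 passed, as lower, with library totals, with the replicate block and without Ago2 knockout input 3 or 4 (edgeR adjusted p down to 0.0170). In inputs labelled Upf1 knockout 2 were higher (Dicer1, Xpo5) and 2 lower (Dgcr8, Tarbp2), against 58.6% of all genes, 29.5% higher and 29.0% lower, so the number of calls among the factors was near the background share. The median over the 7 genes was -0.01 in the first and 0.00 in the second, beside -0.01 and -0.02 over all genes tested. Untagged inputs differed from HA-Tnrc6a inputs in 15.4% of all genes and in 1 of the 7, Dis3l2, at 0.17 ± 0.05 (edgeR adjusted p = 0.0250). That call was lost with library totals (edgeR adjusted p = 0.0508), with all 48 libraries in 1 fit (0.123) and without untagged input 2, 5 or 6 or HA-Tnrc6a input 1 or 4 (edgeR adjusted p 0.0550 to 0.0944). Dgcr8, uncalled at -0.05 ± 0.04, was at 0.05 ± 0.06 in the lower-numbered and -0.14 ± 0.05 in the higher-numbered set. In the latter, untagged inputs (63.7 to 71.2 CPM) lay below all HA-Tnrc6a inputs (73.2 to 78.4 CPM) and above those labelled Upf1 knockout (58.4 to 60.2 CPM). With that set alone Dgcr8 passed the threshold (edgeR adjusted p = 0.0117).

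**Figure D3:**
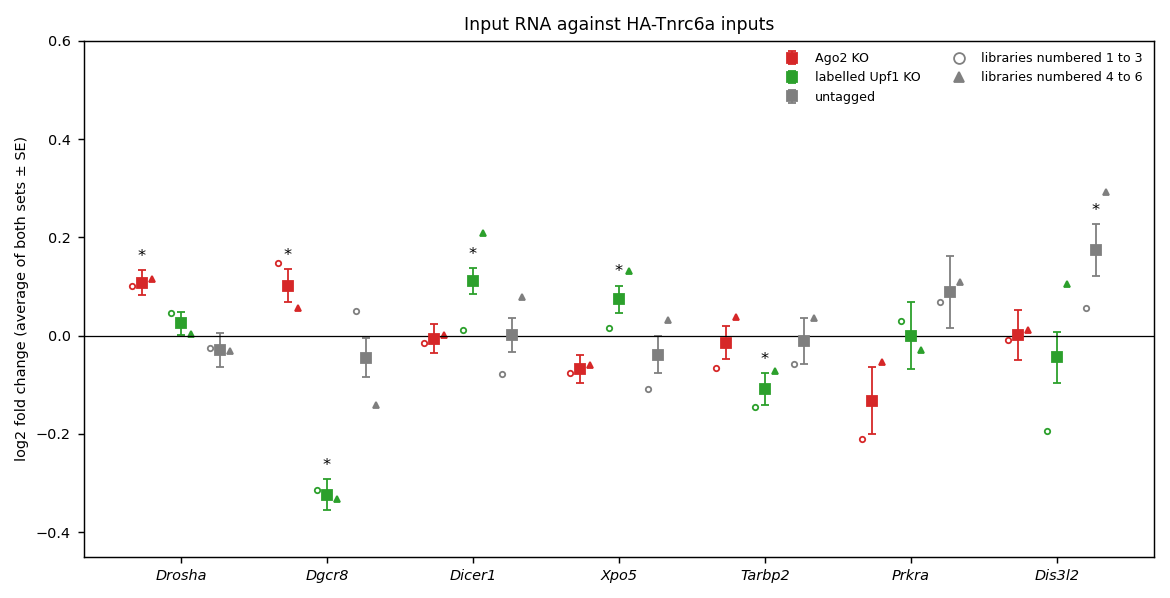
Log2 fold change of input RNA against HA-Tnrc6a inputs (squares, average of both library sets; bars, SE; small circles and triangles, the lower-numbered and higher-numbered set alone; star, adjusted p under 0.05). Dgcr8 in cells labelled Upf1 knockout lies at -0.32 with both sets close together, and the Dicer1 sets lie apart at 0.01 and 0.21.

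The knockouts were also compared with each other directly, where 62.3% of all genes tested and 5 of the 7 factors passed the threshold. Dgcr8 was higher in Ago2 knockout inputs than in those labelled Upf1 knockout by 0.43 ± 0.03 (edgeR adjusted p = 1.03e-15), and the 2 groups did not overlap in either set. The Dicer1 difference of this comparison varied between the sets, as did 13.1% of all genes. Drosha (0.09 ± 0.03) and Tarbp2 (0.10 ± 0.03) were higher as well, and Dicer1 (-0.11 ± 0.03) and Xpo5 (-0.14 ± 0.03) lower. With all 48 libraries in 1 fit, and with the lower-numbered set alone, Dgcr8 kept its call and the other 4 lost theirs (edgeR adjusted p 0.0763 to 0.137 in the former). Drosha and Tarbp2 also lost it with library totals, and Tarbp2 without Ago2 knockout input 2 (0.08, edgeR adjusted p = 0.0599). Prkra, uncalled at -0.13 ± 0.07, passed with library totals (-0.19, edgeR adjusted p = 0.0164) and without input 6 labelled Upf1 knockout (-0.17, 0.0423). It also passed with the lower-numbered set alone. Dis3l2 was uncalled at 0.05 ± 0.05, and its sets differed too, by -0.30 ± 0.10 (edgeR adjusted p of the gap = 0.0482).

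The second comparison asks which of these mRNAs came down with HA-tagged Tnrc6a. Enrichment is the log2 ratio of immunoprecipitate to input in a tagged genotype less the same ratio in untagged cells, so that what the beads held without a tag is taken off. The factors divided into mRNAs recovered above the untagged background (Drosha, Dicer1, Tarbp2) and mRNAs recovered below it (Dgcr8, Prkra, Dis3l2). Xpo5 was below it in HA-Tnrc6a cells, and in the knockouts it did not pass the threshold. A value below the background is relative to the RNA of other genes in the same library. The share of all genes tested with a lower enrichment in HA-Tnrc6a cells was 68.5% for Dicer1, 68.0% for Drosha and 66.9% for Tarbp2. It was 43.0% for Xpo5, 28.6% for Dis3l2, 26.1% for Dgcr8 and 16.7% for Prkra, so many other genes had values further from 0.

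In untagged cells the immunoprecipitate to input ratio of mean CPM ran from 0.773 (Xpo5) to 1.15 (Dis3l2). For some factors it moved between the lower-numbered and the higher-numbered set, from 0.921 to 1.11 for Dicer1 and from 1.14 to 0.949 for Tarbp2. For Prkra it was alike, at 0.882 and 0.880. In the 3 tagged genotypes, with 2 sets each, the ratio ran from 1.07 to 1.27 for Drosha, from 1.21 to 1.51 for Dicer1 and from 1.24 to 1.48 for Tarbp2. For Dgcr8 it ran from 0.552 to 0.676, for Prkra from 0.521 to 0.619 and for Dis3l2 from 0.541 to 0.809. Xpo5 ratios spread from 0.580 to 1.01, and every ratio of its lower-numbered set was below every ratio of its higher-numbered set.

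**Figure D4:**
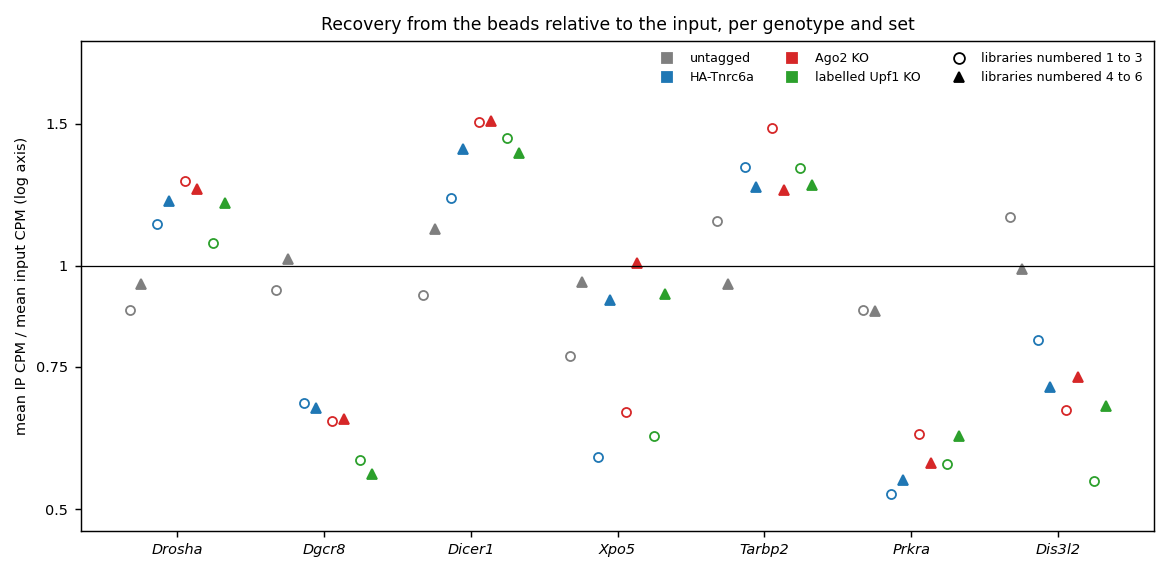
Ratio of mean IP CPM to mean input CPM (log axis) per gene, genotype and library set, each mean over 3 libraries. Untagged ratios lie between 0.773 and 1.15, tagged ratios of Drosha, Dicer1 and Tarbp2 lie above 1, and those of Dgcr8, Prkra and Dis3l2 lie at 0.809 or less.

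Averaged over the sets, Dicer1 had the highest enrichment of the 7 in each tagged genotype, though in HA-Tnrc6a cells it was within 1 SE of Drosha and of Tarbp2. In the higher-numbered set alone Tarbp2 was above Dicer1 in HA-Tnrc6a cells (0.44 against 0.36) and in those labelled Upf1 knockout (0.46 against 0.36). Drosha was above Dicer1 there too (0.38 and 0.39). These orders were not tested. For Dicer1, HA-Tnrc6a immunoprecipitates measured 164, 158 and 162 CPM in the lower-numbered set and 197, 192 and 195 CPM in the higher-numbered set. Untagged immunoprecipitates measured 113, 111 and 124 CPM, and 160.1, 169 and 163 CPM, below every HA-Tnrc6a library of their set. The enrichment was 0.38 ± 0.06 in HA-Tnrc6a cells (edgeR adjusted p = 2.58e-06), 0.59 ± 0.09 in Ago2 knockout cells (4.76e-07) and 0.56 ± 0.07 in those labelled Upf1 knockout (5.91e-09).

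Drosha immunoprecipitates measured 177, 170.4 and 171 CPM, and 251, 244 and 233 CPM, in HA-Tnrc6a cells. In untagged cells they measured 119, 138 and 143 CPM, and 177, 188 and 197 CPM, without overlap in either set. The enrichment was 0.36 ± 0.07 (edgeR adjusted p = 2.33e-05), and it was 0.48 ± 0.08 in Ago2 knockout cells and 0.38 ± 0.07 in those labelled Upf1 knockout. Tarbp2 was enriched by 0.32 ± 0.08 (edgeR adjusted p = 0.000901), 0.40 ± 0.08 and 0.39 ± 0.08 in the same order of genotypes. Its neighbour Map3k12 was enriched by 1.65 ± 0.08 in HA-Tnrc6a cells, and its part in the Tarbp2 value was not tested. Untagged immunoprecipitate 1 had 81.9 CPM of Tarbp2 and the other 5 had 60.6 to 66.6 CPM.

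Dgcr8 immunoprecipitates measured 42.0, 40.3 and 47.0 CPM, and 46.4, 53.9 and 50.4 CPM, in HA-Tnrc6a cells. In untagged cells they measured 59.9, 59.6 and 65.9 CPM, and 67.6, 70.2 and 71.6 CPM, above every HA-Tnrc6a library of their set. The enrichment was -0.53 ± 0.07 (edgeR adjusted p = 1.11e-07), -0.58 ± 0.07 in Ago2 knockout cells and -0.71 ± 0.07 in those labelled Upf1 knockout. Trmt2a also lay below the background, at -0.52 ± 0.07 in HA-Tnrc6a cells. The partners of the Microprocessor therefore lay on opposite sides of the untagged background in all 3 genotypes, Drosha above it and Dgcr8 below it.

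Prkra, at 5.65 to 8.995 CPM in the HA-Tnrc6a immunoprecipitates and 8.29 to 15.8 CPM in the untagged ones, had an enrichment of -0.71 ± 0.14 (edgeR adjusted p = 4.95e-05). It was -0.56 ± 0.13 in Ago2 knockout cells and -0.49 ± 0.14 in those labelled Upf1 knockout. The Dicer partners Tarbp2 and Prkra thus had values of opposite sign. Dis3l2 had an enrichment of -0.48 ± 0.12 (edgeR adjusted p = 0.000631), -0.60 ± 0.10 and -0.75 ± 0.10. Xpo5 was at -0.23 ± 0.08 in HA-Tnrc6a cells (edgeR adjusted p = 0.0122), with -0.43 ± 0.12 in the lower-numbered and -0.04 ± 0.11 in the higher-numbered set. That gap of 0.39 ± 0.16 between the sets did not pass the threshold (edgeR adjusted p = 0.313). Xpo5 was at -0.06 ± 0.08 in Ago2 knockout cells and at -0.11 ± 0.13 in those labelled Upf1 knockout, and neither value passed the threshold.

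All 7 factors passed in HA-Tnrc6a cells, where 62.0% of all genes tested did, and 6 of 7 passed in each knockout, where 64.7% (Ago2) and 63.6% (labelled Upf1) of genes did. In HA-Tnrc6a cells 3 of the 7 were higher and 4 lower, beside 29.8% higher and 32.2% lower among all genes tested. The 3 comparisons share the untagged libraries, so their signs are not independent. Leaving out any 1 library changed no enrichment call of the 7 genes. Fitting the lower-numbered set alone lost the calls of Tarbp2 and Dis3l2 in HA-Tnrc6a cells and of Prkra in Ago2 knockout cells. It also lost those of Drosha and Tarbp2 in cells labelled Upf1 knockout. The higher-numbered set alone lost that of Xpo5 in HA-Tnrc6a cells. Scaling by library totals moved the median of all genes from -0.10 to -0.25 in HA-Tnrc6a cells, from -0.07 to -0.22 in Ago2 knockout cells and from -0.06 to -0.32 in cells labelled Upf1 knockout, where higher calls went from 50.0% to 36.4% of all calls. On that scale Tarbp2 in HA-Tnrc6a cells (0.16, edgeR adjusted p = 0.0707) and Drosha (0.12, 0.131) and Tarbp2 (0.13, 0.150) in cells labelled Upf1 knockout missed the threshold, and Xpo5 passed it below 0 in both knockouts (-0.21 and -0.37).

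The third comparison asks whether loss of Ago2, or the Upf1 knockout label, changed recovery with Tnrc6a. Recovery is the log2 ratio of immunoprecipitate to input in a knockout less that in HA-Tnrc6a cells. None of the 7 factors passed the threshold in Ago2 knockout cells, where 21.3% of all genes tested did, or in cells labelled Upf1 knockout, where 4.49% did. In the direct comparison of the knockouts 0 of 7 passed, against 24.4% of all genes. At an unadjusted p under 0.05 the edgeR tests gave 2, 3 and 1 of the 7 genes in the same order, and DESeq2 called 0, 1 and 0. With library totals the share of higher calls among all calls went from 65.1% to 22.4% in cells labelled Upf1 knockout and from 44.6% to 63.4% between the knockouts.

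For Dicer1 the Ago2 knockout immunoprecipitates measured 156, 195 and 245 CPM in the lower-numbered set, which overlapped the 158 to 164 CPM of HA-Tnrc6a cells. In the higher-numbered set they measured 206, 211 and 217 CPM, above all 3 HA-Tnrc6a libraries. The recovery difference was 0.21 ± 0.08 (edgeR adjusted p = 0.0726). It passed the threshold without Ago2 knockout immunoprecipitate 1 (0.28, edgeR adjusted p = 0.00157), without Ago2 knockout input 3 (0.24, 0.0467), and with all 48 libraries in 1 fit (0.21, 0.0427). Without that immunoprecipitate Drosha (0.17, edgeR adjusted p = 0.0422) and Xpo5 (0.21, 0.0433) passed as well, from 0.11 ± 0.07 and 0.16 ± 0.08 with it.

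For Dgcr8 the immunoprecipitates labelled Upf1 knockout measured 30.6, 30.2 and 28.3 CPM, and 31.6, 31.9 and 34.7 CPM, below every HA-Tnrc6a immunoprecipitate. Since the inputs were lower too, the recovery difference was -0.20 ± 0.07 (edgeR adjusted p = 0.120). DESeq2 gave -0.22 (adjusted p = 0.0254) and library totals -0.29 (edgeR adjusted p = 0.0239), and all 48 libraries in 1 fit -0.25 (0.0223). It also passed without HA-Tnrc6a immunoprecipitate 1, 2 or 4, HA-Tnrc6a input 3 or 5, or immunoprecipitate 4 labelled Upf1 knockout, with values from -0.28 to -0.24. Dis3l2 recovery in cells labelled Upf1 knockout was -0.27 ± 0.11 (edgeR adjusted p = 0.182) and passed without HA-Tnrc6a immunoprecipitate 3 (-0.38, edgeR adjusted p = 0.0257) or 4 (-0.38, 0.0254), and with library totals (-0.36, 0.0448). Dicer1 recovery there was 0.17 ± 0.06 (edgeR adjusted p = 0.118), with 0.33 ± 0.09 in the lower-numbered set (0.0478) and 0.01 ± 0.08 in the higher-numbered set. For Dis3l2 the sets were at -0.49 ± 0.17 and -0.06 ± 0.15 in the same order. Neither gap between the sets passed the threshold (edgeR adjusted p = 0.809 for Dicer1 and 0.912 for Dis3l2).

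The errors of the other recovery differences leave room for small differences. Tarbp2 differed by 0.07 ± 0.06 in Ago2 knockout cells and 0.05 ± 0.06 in those labelled Upf1 knockout, and Prkra by 0.14 ± 0.12 and 0.20 ± 0.13. Dgcr8 differed by -0.06 ± 0.07 in Ago2 knockout cells and Drosha by 0.01 ± 0.06 in cells labelled Upf1 knockout, where its sign changed under other settings. Between the knockouts Dgcr8 was at 0.15 ± 0.07 (edgeR adjusted p = 0.102), and it passed with library totals (0.24, edgeR adjusted p = 0.0102), without a count filter (0.19, 0.0289) with all 48 libraries in 1 fit (0.19, 0.0333), and in 11 of 24 fits with 1 library removed. Drosha was at 0.12 ± 0.07 there (edgeR adjusted p = 0.241), and it passed with library totals (0.20, edgeR adjusted p = 0.0294) and without Ago2 knockout immunoprecipitate 1 (0.21, 0.0101). Dis3l2 was at 0.17 ± 0.09 (edgeR adjusted p = 0.176), and it passed with library totals (0.25, edgeR adjusted p = 0.0285) and without immunoprecipitate 1 labelled Upf1 knockout (0.24, 0.0459).

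**Figure D5:**
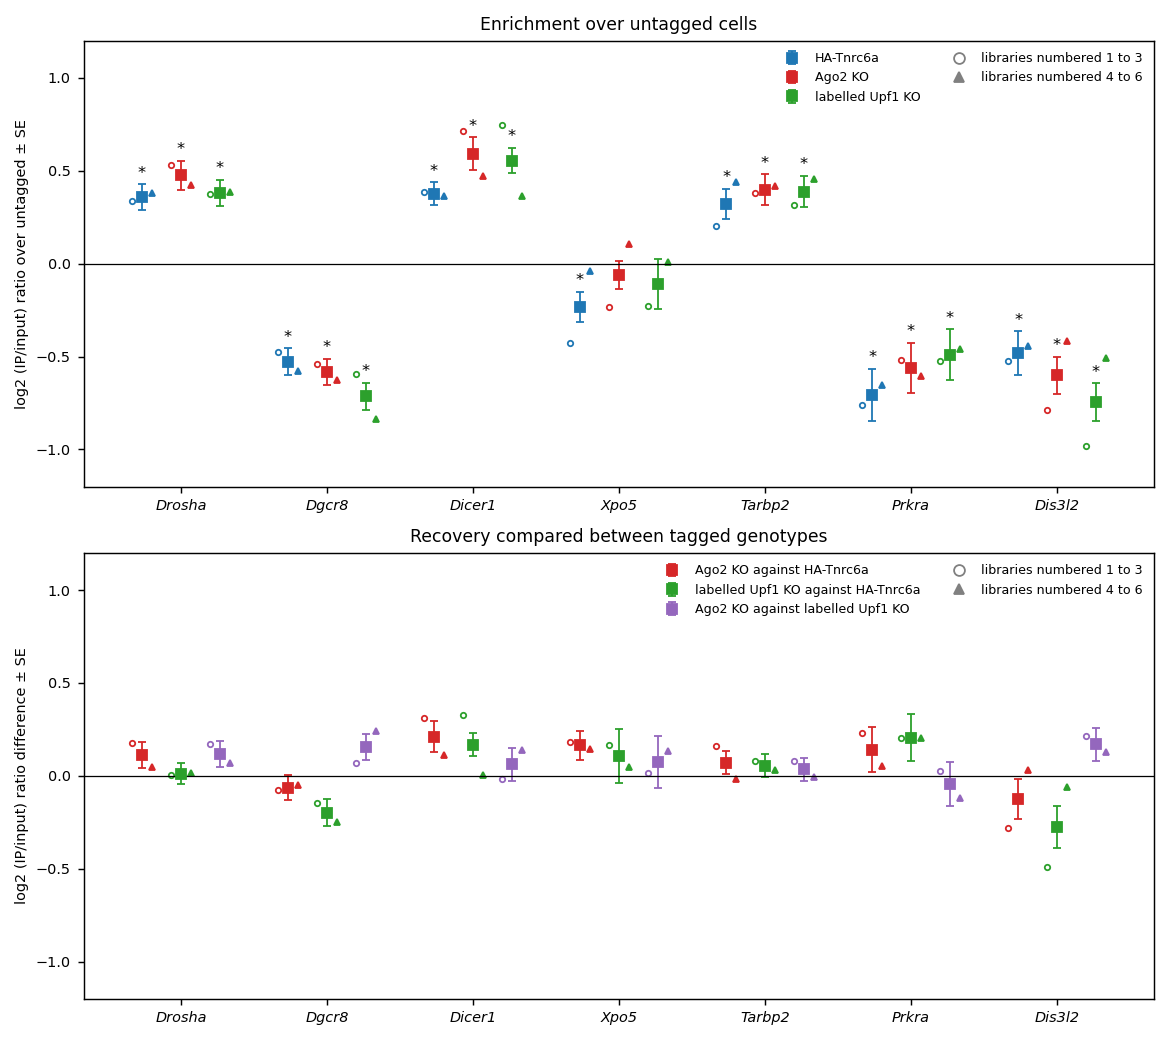
Log2 differences in the IP to input ratio with SE bars, for enrichment over untagged cells (upper panel) and for recovery compared between tagged genotypes (lower panel); small circles and triangles are the library sets and stars mark adjusted p under 0.05. Drosha, Dicer1 and Tarbp2 lie above 0 and Dgcr8, Prkra and Dis3l2 below 0 in the upper panel, and no star appears in the lower panel.

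The Mir1306 hairpin in Dgcr8 has its own entry in the table and was singled out after its values were seen. It had 9 to 57 counts in the 24 inputs and 0 to 46 in the 24 immunoprecipitates, with medians of 0.948 and 0.601 CPM. Immunoprecipitates labelled Upf1 knockout held 0, 4 and 8 counts in the lower-numbered set and 4, 8 and 16 in the higher-numbered set. Its difference passed the threshold in none of the comparisons of inputs, enrichment or recovery. For enrichment in HA-Tnrc6a cells the value was 0.00 ± 0.68 (edgeR adjusted p = 0.997), an error too wide at this depth to compare with the host gene. That value averages 0.81 in the lower-numbered and -0.82 in the higher-numbered set. Whether reads of the hairpin come from the Dgcr8 mRNA or from a released precursor was not tested.

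A list of 52 other small RNA pathway genes was tested in the same fits, in which 62.0% of all genes passed for enrichment in HA-Tnrc6a cells. Its 7 effector genes, Ago1 to Ago4 and Tnrc6a to Tnrc6c, were all enriched in each tagged genotype, with a median of 2.40 in HA-Tnrc6a cells. There Ago1 was at 3.47 ± 0.09, and Adarb1, an RNA-editing enzyme of the processing list, at 2.72 ± 0.12. Of the 17 processing cofactors 6 were higher and 9 lower, with Srsf3, a splicing factor, at -0.98 ± 0.07 and Hnrnpa2b1, an RNA-binding protein, at -0.95 ± 0.07. All 4 nuclear transport genes were lower. Of the 8 genes of Argonaute loading 2 were higher and 5 lower, and of the 16 genes of tailing and turnover 7 were higher and 6 lower. In HA-Tnrc6a cells the lowest effector value was 1.06, above the 0.38 of Dicer1, and in Ago2 knockout cells it was 0.41, below the 0.59 of Dicer1 and the 0.48 of Drosha.

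In Ago2 knockout inputs 14 of the 52 were higher and 8 lower, beside 15.7% and 15.2% of all genes tested. Tnrc6a (0.51 ± 0.03), Ago1 (0.49 ± 0.03) and Tnrc6b (0.34 ± 0.04) were higher, beside 0.11 for Drosha. In inputs labelled Upf1 knockout 16 were higher and 20 lower, beside 29.5% and 29.0% of all genes. Tut7, a terminal uridylyl transferase (0.55 ± 0.04), Ago2 (0.47 ± 0.03) and the helicase gene Ddx17 (0.36 ± 0.02) were higher. Ranbp1 (-0.42 ± 0.02), a Ran-binding protein, Xpo1 (-0.35 ± 0.02), the main protein exporter, and Ptges3 (-0.34 ± 0.02), a chaperone of Argonaute loading, were lower, of a size with Dgcr8.

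In recovery 5 of the 52 were higher and 12 lower in Ago2 knockout cells, where 21.3% of all genes passed in either direction. Tut1, a uridylyl transferase, was higher by 0.68 ± 0.08 and Xpo1 by 0.40 ± 0.06, and Ago2 (-1.35 ± 0.07) and Ago3 (-0.66 ± 0.10) were lower. In cells labelled Upf1 knockout, where 4.49% of all genes passed, 4 were higher, with Tut1 at 0.36 ± 0.09, and 2 were lower, Adar at -0.33 ± 0.07 and Tsnax at -0.26 ± 0.06.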

How the data were processed

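The authors deposited 1 table with a raw count per gene for 48 RNA libraries, with no normalization, and a gene length in bases per the file headers; 48 scaled columns headed RPKM were not used. STAR 2.7.3a, bcl2fastq 2.20 and the builds GRCm38 and mm10 are named in the submitters' processing notes, and the kit was stranded per the labels' protocols. The annotation and strand setting of the counting are not given in the sources used here. The labels name experiments 3 and 4, the headers number libraries 1 to 6, and no link between them was assumed. Replicate pairs differed by more than sampling noise (chi-square per degree of freedom 1.93 to 34.0, 48 pairs), so none was merged.

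Tests used R 4.3.3 with edgeR 4.0.16 and limma 3.58.1, namely TMM scaling, filterByExpr with a minimum count of 10, robust quasi-likelihood fit with 1 coefficient per group and library set, contrasts averaged over the sets, two-sided F-test, and Benjamini-Hochberg adjustment over all genes tested with a threshold of 0.05. Each fit held just the groups it compared. The SE is the log2 fold change divided by the square root of F. Alternatives were other scalings, no filter, DESeq2 1.42.0, all libraries in 1 fit, a replicate block, each set alone, IPs without inputs, and leaving out each library. The fit was tested on simulated data.

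The members and gene lists were chosen with earlier results of these data known. All 7 members were named, and from the pathway list (55 symbols, 52 genes) up to 3 per direction past the threshold, with equal signs in the library sets and a mean log2 CPM of at least 3. Pattern likeness is the Pearson r of log2 CPM (prior count 2) centred within each set. Coordinates and sequences are RefSeq's on GRCm38.p6. Intervals and errors do not cover reads copied by PCR, which are not independent molecules.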

Additional observations from a re-analysis of the deposited data

Results flagged for a closer look

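One group of 6 libraries held a value far from the others. In untagged immunoprecipitates Tarbp2 measured 81.9 CPM in library 1, and the next highest was 66.6 CPM, a gap of 0.718 of the whole range. Of the 56 groups tested this was the 1 that passed, and chance alone is expected to give about 1 in 20.

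The effects of the Ago2 knockout and of the Upf1 knockout label on inputs, both against HA-Tnrc6a cells, differed for 5 of the 7 genes when the knockouts were tested against each other (edgeR adjusted p under 0.05). The log2 difference, Ago2 knockout less labelled Upf1 knockout, was 0.43 for Dgcr8, 0.086 for Drosha, 0.099 for Tarbp2, -0.11 for Dicer1 and -0.14 for Xpo5. Both effects share the HA-Tnrc6a inputs, which do not enter this difference. The Dicer1 difference also varied between the library sets, at -0.01 in the lower-numbered and -0.21 in the higher-numbered set (edgeR adjusted p of the gap = 0.0199), and 13.1% of all genes tested passed for such a gap.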

How the results depend on the processing

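Of 1946 values of the 7 genes under alternatives, 1759 kept their direction and side of the threshold, 45 lost the call, 56 gained it and 86 changed sign, all 86 among uncalled values. The cause was not tested. The number of genes past the threshold moved by over 1.5 times as follows. In Ago2 knockout inputs it went from 6065 to 3902 with all 48 libraries in 1 fit and 3382 with libraries 1 to 3 alone, and in untagged inputs from 2990 to 1937 and 652. In recovery with libraries 1 to 3 alone it went from 4267 to 1623 (Ago2 knockout), from 896 to 162 (labelled Upf1 knockout) and from 4878 to 2667 (between the knockouts). With IPs compared without inputs these became 7482, 8805 and 10794. For labelled Upf1 knockout recovery it was 384 with libraries 4 to 6 alone and 591 to 957 on leaving out 1 library.

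With RLE size factors the sign changed for Prkra (-0.0099) in labelled Upf1 knockout inputs, Drosha (-0.0066) in labelled Upf1 knockout recovery. With library totals it did for Dis3l2 (-0.010) in Ago2 knockout inputs, Dicer1 (-0.013) in untagged inputs, Dis3l2 (-0.0084) in inputs of the knockouts against each other, Drosha (-0.078) and Tarbp2 (-0.035) in labelled Upf1 knockout recovery, Prkra (0.036) in recovery between the knockouts. Without a count filter it did for Drosha (-0.018) in labelled Upf1 knockout recovery. With DESeq2 it did for Prkra (-0.0096) in labelled Upf1 knockout inputs, Drosha (-0.0066) in labelled Upf1 knockout recovery. With all 48 libraries in 1 fit it did for Prkra (-0.0015) in labelled Upf1 knockout inputs, Drosha (-0.042) in labelled Upf1 knockout recovery. With the replicate block it did for Prkra (-0.00069) in labelled Upf1 knockout inputs. With libraries 1 to 3 alone it did for Dis3l2 (-0.0092) in Ago2 knockout inputs, Dgcr8 (0.049) and Dicer1 (-0.081) in untagged inputs, Drosha (-0.083) and Tarbp2 (-0.0085) in labelled Upf1 knockout recovery, Prkra (0.12) in recovery between the knockouts. With libraries 4 to 6 alone it did for Dicer1 (0.0057) and Tarbp2 (0.042) in Ago2 knockout inputs, Prkra (-0.030) and Dis3l2 (0.10) in labelled Upf1 knockout inputs, Xpo5 (0.031) and Tarbp2 (0.035) in untagged inputs, Dis3l2 (-0.097) in inputs of the knockouts against each other, Xpo5 (0.046) in Ago2 knockout enrichment, Tarbp2 (-0.0050) and Dis3l2 (0.038) in Ago2 knockout recovery, Tarbp2 (-0.061) in recovery between the knockouts. With IPs compared without inputs it did for Dgcr8 (0.075) in Ago2 knockout recovery, Drosha (-0.0031) and Tarbp2 (-0.093) in labelled Upf1 knockout recovery, Dicer1 (-0.034) and Xpo5 (-0.047) in recovery between the knockouts. Leaving out 1 library changed the sign of Tarbp2 in Ago2 knockout inputs (-0.032 to 0.010), Dis3l2 in Ago2 knockout inputs (-0.033 to 0.036), Dicer1 in Ago2 knockout inputs (-0.028 to 0.011), Prkra in labelled Upf1 knockout inputs (-0.039 to 0.042), Dicer1 in untagged inputs (-0.015 to 0.029), Tarbp2 in untagged inputs (-0.063 to 0.031), Drosha in labelled Upf1 knockout recovery (-0.050 to 0.020), Tarbp2 in labelled Upf1 knockout recovery (-0.040 to 0.072), Xpo5 in labelled Upf1 knockout recovery (-0.017 to 0.16) and Prkra in recovery between the knockouts (-0.084 to 0.047).

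Deviations from the group means correlated little between libraries of the same number (mean r = 0.0680 over 168 pairs, lowest -0.293), a little more between input and immunoprecipitate of 1 genotype and number (0.104 over 24 pairs, -0.061 to 0.509), and at -0.033 between different numbers. Since not every pair was above 0.1, the numbers were not taken to pair the samples. That rule does not exclude a lysate shared by an input and an immunoprecipitate of the same number. The replicate block gives each number an effect common to all groups of a fit, so it does not model such a pair within a genotype. With the replicate block the genes past the threshold were 6494 in Ago2 knockout inputs and 11541 in labelled Upf1 knockout inputs. Among the 7 genes it brought Xpo5 in Ago2 knockout inputs past the threshold (-0.068, edgeR adjusted p = 0.0399) and changed no other call. Depth limits Prkra, Dis3l2 and Mir1306 most, with the lowest counts.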

Other observations

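Between the inputs of the knockouts, 31 of the 52 other pathway genes were higher and 15 lower in Ago2 knockout cells than in cells labelled Upf1 knockout, where 62.3% of all genes tested passed. All 8 genes of the Argonaute loading list were higher, among them Hspa8, a chaperone, at 0.49 ± 0.02. Tut1 (0.58 ± 0.04) was higher and Tut7 (-0.54 ± 0.04) lower, 2 enzymes that add uridines to RNA ends.

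The genes whose levels followed each factor most closely over the 48 libraries, centred within each set, were found among 10839 others. For Dgcr8 these were Ngdn, Kdm1a and Smarca5 (r = 0.960, 0.960 and 0.959), for Dicer1 Ric1, Arfgef2 and Ammecr1l (0.945, 0.936 and 0.929) and for Drosha Lrch1, Atg2b and Dock5 (0.915, 0.908 and 0.907). For Xpo5 they were Nup188, Focad and Polr3b (0.942, 0.928 and 0.910), for Tarbp2 Mrps7, Eif4e2 and Eloc (0.941, 0.931 and 0.924), for Prkra Uqcrfs1, Mipep and Nono (0.947, 0.947 and 0.942) and for Dis3l2 Uqcrc2, Cul3 and Xrcc5 (0.908, 0.907 and 0.906). The points share libraries and fall into inputs and immunoprecipitates, and the part of that split in these values was not tested.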
